A study of Rattus norvegicus with 6 samples.

Results

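Insulin and insulin-like growth factor I (IGF-I) act on cells through a pair of related receptor tyrosine kinases, and the genes of these receptors, of the orphan receptor related to them and of the first proteins they engage were examined here in brains of newborn rats. They were taken by gene symbol from the deposited tables. Of 9 listed genes, 8 were matched among 30498 genes, namely the receptor genes Insr, Igf1r and Insrr, the substrate genes Irs1 and Irs2, and the adaptor genes Grb2, Grb14 and Shc1. Irs4 was not analysed here. The CR group held 3 libraries from pups of dams kept on caloric restriction, a rat (Rattus norvegicus) model of fetal growth restriction, and the control group held 3 libraries from pups of control dams. Brains were collected right after delivery by Caesarean section, and the labels call all 6 samples whole brain. Strain, sex and gestational age are not given in the labels, nor is it said whether each library stands for its own pup or litter. The p-values below therefore measure only the spread between these libraries, which may be technical in part. Y-linked RNA was present in some libraries of each group and near 0 in others, so a group's libraries are not all repeats of the same sample. The study's title concerns the insulin receptor of the brain in growth restriction.

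When insulin or IGF-I binds, the receptor phosphorylates itself and then docking proteins of the IRS family, which recruit phosphatidylinositol 3-kinase (PI3K). The adaptors Shc1 and Grb2 couple the same receptors to Ras and the mitogen-activated protein (MAP) kinases, whereas Grb14 binds the active kinase and restrains it. In the brain, IGF-I signalling through Igf1r is known for promoting growth of the brain before and after birth, and the insulin receptor is present on neurons and glia.

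The regulatory sequence in front of both receptor genes is shown first, since the results turn on these receptors. Windows of 300 bases, from 250 before to 50 after the gene's start, were taken from RefSeq (build GRCr8), which gave them for 6 of the 9 listed genes. The Insr window lies at chr12:6128754-6129053 on the minus strand and the Igf1r window at chr1:130959747-130960046 on the plus strand, and both are written 5′ to 3′ along the gene. These coordinates differ from those of the genes below, which are on another build. Capitals mark matches on either strand to TTGTTTAC, the motif bound by FOXO transcription factors, which insulin signalling keeps out of the nucleus, or to GGGCGG, the GC box bound by Sp1.

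Insr: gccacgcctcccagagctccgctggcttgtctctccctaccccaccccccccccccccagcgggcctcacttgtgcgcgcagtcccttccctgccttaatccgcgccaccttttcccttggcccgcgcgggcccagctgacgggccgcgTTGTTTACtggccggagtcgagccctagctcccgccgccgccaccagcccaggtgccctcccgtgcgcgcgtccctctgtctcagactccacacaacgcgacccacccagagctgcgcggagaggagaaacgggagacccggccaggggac

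Igf1r: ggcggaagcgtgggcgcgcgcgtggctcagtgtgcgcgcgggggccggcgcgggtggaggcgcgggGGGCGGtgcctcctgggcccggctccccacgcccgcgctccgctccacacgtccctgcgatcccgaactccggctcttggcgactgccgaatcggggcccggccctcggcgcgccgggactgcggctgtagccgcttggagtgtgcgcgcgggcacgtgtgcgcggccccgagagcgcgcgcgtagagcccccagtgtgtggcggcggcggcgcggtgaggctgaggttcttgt

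The Insr window held 1 match to the FOXO motif, starting at position -101 from the gene's start, and no GC box. The Igf1r window held 1 GC box at position -184 and no FOXO motif, and neither window held TATAAA. The FOXO motif occurred in 1.1% of all 33469 windows, the GC box in 33.1% and TATAAA in 14.2%. The motifs were chosen after the sequences had been seen and do not overlap one another. Bases G and C made up 71.3% of the Insr window and 78% of the Igf1r window, against a median of 51.7% over all windows. The GC box was found 3 times in the Irs1 window, 4 times in that of Grb14 and once in that of Shc1, and 3 times in that of Irs4. A match describes these letters and does not show that a factor binds.

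Expression was measured as FPKM, fragment counts scaled to the exon length of the gene and to the assigned reads of the library, so that levels can be compared between genes. The libraries held 14030961 to 25734737 assigned reads. Grb2 was by far the highest of the 8 genes, and Insrr the lowest. In CR libraries Grb2 averaged 82.2 ± 1.86 FPKM, Grb14 8.36 ± 0.616, Insr 4.93 ± 0.403, Irs2 4.5 ± 0.167, Irs1 3.96 ± 0.367, Igf1r 3.88 ± 0.377, Shc1 3.86 ± 0.177 and Insrr 0.21 ± 0.0623 FPKM (SD, n = 3 each). In that order, the ranges of neighbouring genes from Insr down to Shc1 overlapped in CR libraries, and those of the others did not. In control libraries Igf1r stood next to Insr, ahead of Irs2, and the ranges of these 3 genes overlapped, while those of Irs2 and Irs1 did not. Among the 15247 genes whose mean reached 0.5 FPKM, the mean level of Grb2 was above 94.8% of genes, that of Grb14 above 54.2%, and those of Insr, Irs2, Igf1r, Irs1 and Shc1 above 32.7% to 41.9%.

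**Figure D1:**
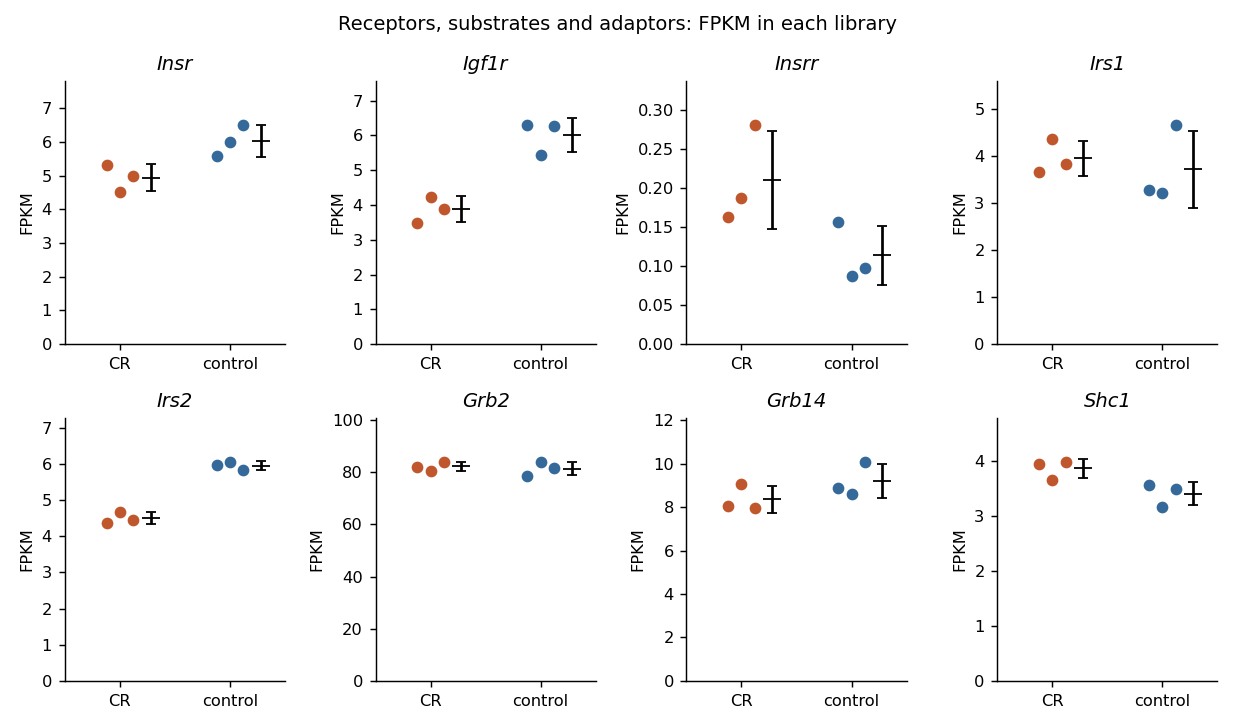
FPKM of the 8 genes in each library, with CR on the left and control on the right of each panel; points are libraries, horizontal marks the group mean and bars the SD (n = 3), and each vertical axis starts at 0. The CR libraries lie below the control libraries for Insr, Igf1r and Irs2 and above them for Insrr and Shc1, while the groups overlap for Irs1, Grb2 and Grb14.

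Igf1r and Irs2 were lower in CR brains, and none of the 8 genes was called higher. The 7 genes whose mean reached 0.5 FPKM were tested with limma on log2(FPKM + 1), with p-values adjusted by the Benjamini-Hochberg method over all 15247 genes and a threshold of 0.05. Each log2 fold change below is the CR mean less the control mean of these logs, and because of the added 1 it is too small for genes of low level. The 2 calls among 7 tested genes stand beside 33.9% of all tested genes called in either direction, 17.7% called higher and 16.2% called lower. The share of calls was thus near that of the whole transcriptome, and 0 called higher among only 7 genes says little. At an unadjusted p under 0.05, 0 of the 7 were higher in limma, and 0 in limma-voom on reads worked out from the FPKM. Groups did not overlap in 4 of the 7, against 50.3% of all tested genes. In bulk tissue, fewer cells that express a gene and less RNA per cell cannot be told apart.

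**Figure D2:**
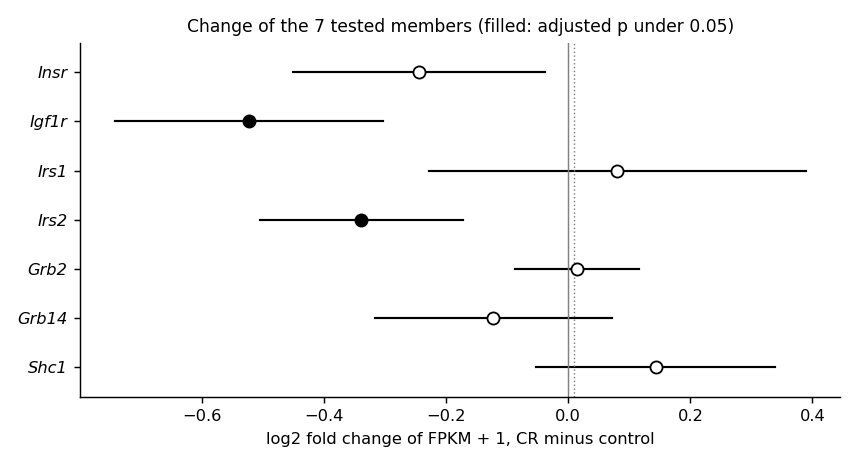
Log2 fold change of FPKM + 1 (CR minus control) for the 7 tested genes with limma's 95% interval; filled circles passed an adjusted p of 0.05, the solid line marks 0 and the dotted line the median of all tested genes (0.01). Only Igf1r and Irs2 are filled, at -0.52 and -0.34, and the interval of Insr lies below 0 without its adjusted p passing.

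Igf1r encodes the receptor that carries most signals of IGF-I and IGF-II, and it showed the largest decrease of the 7. On mRatBN7.2, the build of the deposited tables, it spans 281 kb of chromosome 1 (121550743 to 121831777) with 21 exons. Igf1r was at 3.49, 4.24 and 3.90 FPKM in CR replicates 1 to 3, against 6.30, 5.44 and 6.27 FPKM in control replicates 1 to 3. All CR libraries were below all control libraries, by a gap wider than the range within either group. Its level fell by 35.5%, with a log2 fold change of -0.52 (95% interval -0.74 to -0.30, limma adjusted p = 0.00561). In all tested genes, 12.5% had a larger absolute log2 fold change. The call was made again in each fit that left out 1 library, with log2 fold changes from -0.58 to -0.46.

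Insr encodes the insulin receptor and lies on chromosome 12 (1197100 to 1330883, minus strand). It was at 5.31, 4.50 and 4.98 FPKM in CR replicates 1 to 3, against 5.57, 6.0 and 6.50 FPKM in control replicates 1 to 3. The groups did not overlap, but the highest CR library and the lowest control library were closer together than the libraries within either group. The CR mean differed from the control mean by -18.2%, and the log2 fold change of -0.24 did not pass (95% interval -0.45 to -0.04, limma adjusted p = 0.0682). Of the tested genes, 37.7% had a smaller p. Between 423 and 823 reads stood behind each value, a counting error of 3.49% to 4.86%, below the spread between libraries of 8.17% in CR and 7.7% in control (coefficient of variation). The result moved past the threshold with limma-voom on reads (adjusted p = 0.0262) and when Y-linked RNA entered the fit (adjusted p = 0.0354). Y-linked RNA was present in CR replicates 1 and 3 and in control replicate 3, and near 0 in the other libraries.

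The insulin receptor is made in an A and a B isoform that differ by the alternative exon 11, and isoform A, which lacks it, binds IGF-II strongly and is known as the fetal form. The annotation in the tables lists 3 Insr transcripts with 23 exon blocks. The eleventh block from the 5′ end, at 1221709 to 1221744 on chromosome 12, is 36 bases long and belongs to 2 of the 3 transcripts. It makes up 0.666% of the 5409 bases of exon over which the FPKM of Insr was computed, so the value of Insr sums both isoforms and says nothing of their ratio.

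The balance between the receptor genes was not shown to differ between the groups. Within each library, the ratio of Igf1r to Insr FPKM was 0.658, 0.942 and 0.783 in CR replicates 1 to 3, against 1.13, 0.907 and 0.965 in control replicates 1 to 3. CR replicate 2 lay above the lowest control, so the groups overlapped (exact permutation test over libraries, two-sided, p = 0.2, adjusted p = 0.261). Igf1r made up 44.0% ± 4.41 of the summed FPKM of both receptor genes in CR libraries and 49.9% ± 2.84 in control libraries (SD, n = 3 each). This and the other ratios below belong to a family of 30 ratios over which p was adjusted, and 3 libraries against 3 cannot give an exact p below 0.1.

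Insrr, the gene of the insulin receptor-related receptor, an alkali sensor of the kidney that binds neither insulin nor IGF-I, was close to the limit of detection. It was at 0.163, 0.187 and 0.28 FPKM in the CR replicates in order, against 0.157, 0.0868 and 0.0977 FPKM in control replicates 1 to 3. These values stood on 18, 24 and 36 reads in the CR libraries and 11, 11 and 9 in the control libraries. All CR values lay above all control values, but CR replicate 1 and control replicate 1 differed by far less than their counting intervals, which ran from 0.0963 to 0.257 FPKM and from 0.0783 to 0.281 FPKM (exact Poisson, 95%, counting error only). A count of 3 reads would give 0.0233 to 0.0428 FPKM. Insrr fell below the filter on low values, and without that filter limma gave a log2 fold change of 0.12 (SE 0.0507, adjusted p = 0.168 over 23944 genes, of which 18.9% were called).

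Of the substrates, Irs2 was lower in CR brains and Irs1 was not called. Irs1 and Irs2 are the main docking proteins that carry PI3K to the activated receptors, and Irs2 is known in mice for a role in brain growth. Irs2, on chromosome 16 (78485045 to 78512482), was at 4.35, 4.68 and 4.46 FPKM in CR replicates 1 to 3, against 5.97, 6.06 and 5.83 FPKM in control replicates 1 to 3. Both groups were tight, with a spread of 3.72% in CR and 1.99% in control, and they were far apart. Between 796 and 1461 reads stood behind each value, a counting error of 2.62% to 3.54%. The control spread was thus smaller than counting alone would give, and is no measure of how little these samples vary. Irs2 fell by 24.5%, with a log2 fold change of -0.34 (95% interval -0.51 to -0.17, limma adjusted p = 0.0102), and the call was made again without each library in turn.

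Irs1, on chromosome 9 (83548944 to 83606122), was at 3.67, 4.37 and 3.83 FPKM in CR replicates 1 to 3, against 3.28, 3.23 and 4.67 FPKM in control replicates 1 to 3. Control replicate 3 was the highest and the other controls the lowest of the 6 libraries, so the groups overlapped (log2 fold change 0.08, 95% interval -0.23 to 0.39, limma adjusted p = 0.672). A gene without a name on the opposite strand shares 300 of its exon bases, at 0.619 FPKM in CR and 0.583 FPKM in control, and reads of the 2 genes cannot be told apart unless the counting used strand, which the labels leave unsaid. The ratio of Irs2 to Irs1 lay between 1.07 and 1.19 in the CR libraries, against 1.82, 1.88 and 1.25 in control replicates 1 to 3. Every CR library had a lower ratio than every control library, though control replicate 3 came close (exact permutation test, two-sided, p = 0.1, the smallest possible, adjusted p = 0.15).

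None of the adaptor genes was called, and Grb2 was nearly level. Grb2, which links phosphorylated receptors and Shc1 to the Ras exchange factor Sos, was at 82.2, 80.4 and 84.1 FPKM in CR replicates 1 to 3, against 78.6, 83.8 and 81.7 FPKM in control replicates 1 to 3. The groups interleaved, and the 95% interval of its log2 fold change, -0.09 to 0.12, covers fold changes of 0.942 to 1.08 (limma adjusted p = 0.824). Of all tested genes, 95.7% had a larger absolute change. The point estimate was 0.01 here and below 0 under median-ratio, TMM and quantile scaling, and none of these passed. Shc1, the adaptor that carries receptor signals to Grb2, was at 3.93, 3.65 and 3.98 FPKM in CR replicates 1 to 3, against 3.56, 3.16 and 3.48 FPKM in control replicates 1 to 3. Its CR values all lay above its control values by a narrow gap (log2 fold change 0.14, 95% interval -0.05 to 0.34, limma adjusted p = 0.225), as all CR values did for 26.1% of all tested genes. Between 182 and 373 reads stood behind each Shc1 value, a counting error of 5.18% to 7.41%. That is about as large as its spread between libraries, 4.58% in CR and 6.22% in control. Grb14, which blocks the kinase of the insulin receptor as a pseudosubstrate, was at 8.05, 9.07 and 7.95 FPKM in CR replicates 1 to 3, against 8.88, 8.61 and 10.1 FPKM in control replicates 1 to 3. CR replicate 2 was above 2 of the controls (log2 fold change -0.12, 95% interval -0.32 to 0.07, limma adjusted p = 0.289).

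Grb14 relative to the receptor it restrains overlapped between the groups. The ratio of Grb14 to Insr was 1.52, 2.01 and 1.60 in CR replicates 1 to 3, against 1.59, 1.44 and 1.55 in control replicates 1 to 3 (exact permutation test, two-sided, p = 0.4, adjusted p = 0.444). CR replicate 2, with the lowest Insr, stood above the rest, and the others were alike. The ratio of Shc1 to Grb2 was 0.0479, 0.0455 and 0.0474 in CR replicates 1 to 3, against 0.0452, 0.0377 and 0.0426 in control replicates 1 to 3, so the groups only just failed to overlap (exact permutation test, two-sided, p = 0.1, adjusted p = 0.15). The remaining ratios, of Insrr to Insr and of Grb14 to Grb2, had adjusted p-values of 0.15 and 0.261 (exact permutation test, two-sided).

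RNA of regional marker genes differed between the groups, and lists of these markers were set beside the receptor genes for that reason. Whether the share of each region or the expression within regions differed was not tested. Markers of the dorsal telencephalon, which forms the cortex, summed to 324, 214 and 280 FPKM in CR replicates 1 to 3, against 660, 674 and 555 FPKM in control replicates 1 to 3. Markers of the ventral telencephalon, which forms the striatum and interneurons, summed to 148 to 177 FPKM in CR libraries, against 192 to 236 FPKM in control libraries. Caudal markers, of thalamus, hypothalamus, midbrain, hindbrain with cord, and cerebellum, summed to 569, 690 and 684 FPKM in CR replicates 1 to 3, against 240.4, 238 and 335 FPKM in control replicates 1 to 3. All 3 sums separated the groups. Of the dorsal markers 11 of 12, and of the ventral markers 12 of 15, had every CR value below every control value. Of the caudal markers 57 of 64 had every CR value above, 2 had every one below, and 5 overlapped. Over all tested genes, 24.3% had every CR value below every control value and 26.1% every one above. Control libraries had no read for 10 of 21 hindbrain and cord markers, among them Hoxa2, and for the midbrain markers Pax7 and Pou4f2, although they are labelled whole brain. CR replicate 3 stood apart in the hindbrain and cord list, at 92.1 FPKM, while the other CR libraries held 21.6 and 24.8 FPKM and the control libraries 9.11 to 14.1 FPKM. Without CR replicate 3 the log2 fold change was -0.53 for Igf1r (limma adjusted p = 0.0249). CR replicates 1 and 2 still differed from the control libraries in all 3 sums. That fit therefore cannot separate the change of Igf1r from regional marker levels.

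**Figure D3:**
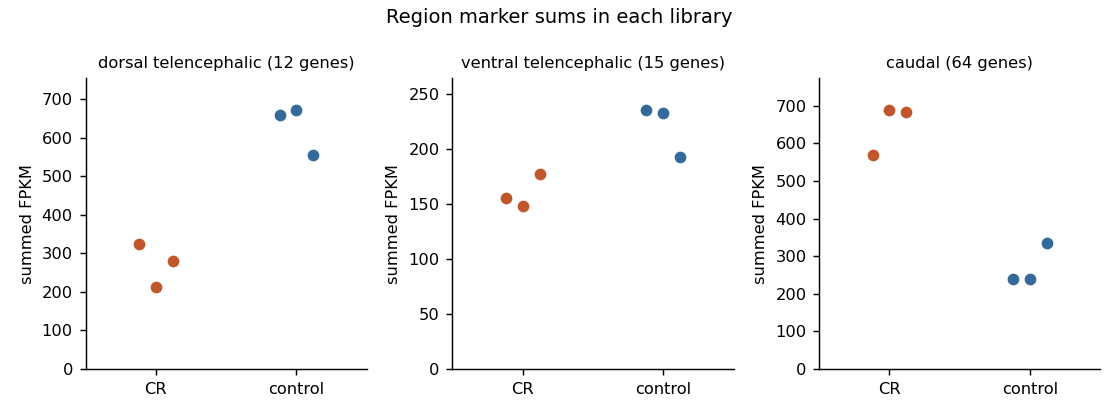
Summed FPKM of marker genes of the dorsal telencephalon, the ventral telencephalon and the caudal regions in each library, CR left and control right, with vertical axes from 0. CR libraries lie lower for both telencephalic lists and higher for the caudal list, with no overlap.

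By group means, Igf1r and Irs2 fell by less than the sum of the dorsal telencephalic markers. The mean of Igf1r fell by more than the ventral sum, but its ratio to that sum overlapped between the groups, as given below. The dorsal sum was 2.31-fold lower in CR and the ventral sum 1.37-fold, beside 1.55-fold for Igf1r and 1.32-fold for Irs2 (ratios of mean FPKM). The value for Insr, which was not called, was 1.22-fold. Per 1000 FPKM of dorsal markers, Insr was at 16.4, 21.0 and 17.8 in CR replicates 1 to 3, against 8.45, 8.91 and 11.7 in control replicates 1 to 3. The ratio of Igf1r to the dorsal markers was 10.8, 19.8 and 13.9 in CR replicates 1 to 3, against 9.55, 8.08 and 11.3 in control replicates 1 to 3. Thus relative to these markers Insr was higher in every CR library (exact permutation test, two-sided, p = 0.1, adjusted p = 0.15), and Igf1r overlapped (exact p = 0.2, adjusted p = 0.261). Among the 8 genes, Igf1r was the exception, and the other 7 had all CR ratios above all control ratios. The same was so for 91.8% of all tested genes, and the dorsal sum itself was lower in every CR library, so that the count of 7 says little about these genes.

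Relative to the ventral telencephalic markers, Insr, Igf1r and both substrates did not separate the groups. Per 1000 FPKM of these markers, Igf1r was at 22.4, 28.7 and 22.0 in CR replicates 1 to 3, against 26.8, 23.4 and 32.7 in control replicates 1 to 3 (exact permutation test, two-sided, p = 0.5, adjusted p = 0.517). The same ratio for Irs2 was 28, 31.7 and 25.2 in CR replicates 1 to 3, against 25.3, 26.1 and 30.4 in control replicates 1 to 3 (exact permutation test, two-sided, p = 0.7, adjusted p = 0.7). In both cases libraries of the groups interleaved, and the same held for Insr, Irs1 and Grb14. Insrr, Grb2 and Shc1 had higher ratios in every CR library, 3 of 8 genes, as did 57.1% of all tested genes.

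Relative to the caudal markers, 7 of the 8 genes were lower in every CR library, as were 87.6% of all tested genes, and the caudal sum itself was higher in every CR library. Per 1000 FPKM of caudal markers, Igf1r was at 6.13, 6.14 and 5.70 in CR replicates 1 to 3, against 26.2, 22.9 and 18.7 in control replicates 1 to 3. The CR libraries were almost equal in this ratio, which was 3.74-fold lower than in control libraries by geometric means (exact permutation test, two-sided, p = 0.1, adjusted p = 0.15). Insr was 2.95-fold lower on the same scale and Grb2, whose FPKM was level, 2.39-fold lower. These sizes depended on how the markers were combined, since abundant markers such as Sst, at 223.5 ± 12.8 FPKM in CR and 136.8 ± 33.5 FPKM in control (SD, n = 3 each), weigh most in a sum. With the geometric mean of the caudal markers in place of their sum, the log2 difference was -3.31 for Igf1r, against -1.90 with the sum, and -2.66 for Grb2, against -1.26. The geometric mean depends in turn on the 0.1 FPKM added to each marker, because several caudal markers had no read in control libraries. Other added values were not tried for it. Insrr overlapped, at 0.285, 0.270 and 0.41 in CR replicates 1 to 3, against 0.652, 0.365 and 0.292 in control replicates 1 to 3, but was lower in every CR library with the geometric mean. Insr, Irs1, Irs2, Grb2, Grb14 and Shc1 were thus higher in every CR library relative to dorsal markers and lower in every CR library relative to caudal markers. A limma fit with the log2 ratio of caudal to dorsal sums as a covariate called 0 of 15247 genes (1697 at an unadjusted p under 0.05), and this ratio and the group had a correlation of 0.962 over the libraries. Group and regional marker levels cannot be told apart in these data.

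**Figure D4:**
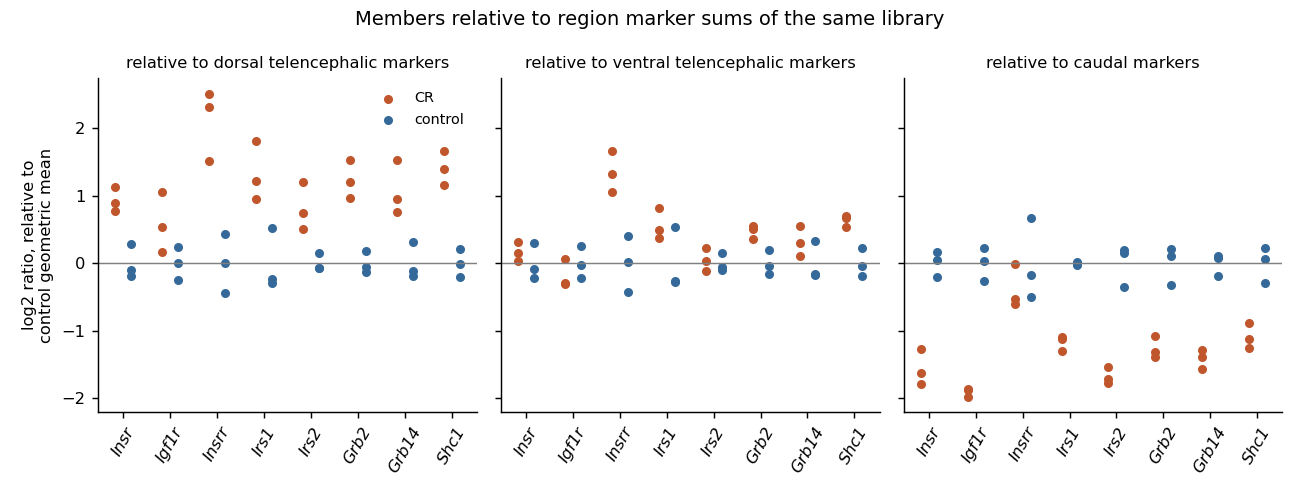
Log2 ratio of each gene's FPKM to the summed FPKM of 3 region marker lists in the same library, set to 0 at the control geometric mean; orange points are CR and blue points control libraries. Relative to dorsal markers the CR points lie higher except for overlap in Igf1r, relative to caudal markers they lie lower except for overlap in Insrr, and relative to ventral markers those of Insr, Igf1r, Irs1, Irs2 and Grb14 overlap.

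Markers of some cell types also moved with the groups. Astrocyte markers summed to 1043 to 1123 FPKM in CR libraries, against 677 to 846 FPKM in control libraries, and 7 of 8 had all CR values above all control values. Microglial markers, with 7 of 8 above, summed to 56.1 to 64.8 FPKM in CR and 31.6 to 44.8 FPKM in control, and markers of the oligodendrocyte lineage, with 6 of 10 above, to 86.5 to 100.9 FPKM in CR and 65.9 to 76.8 FPKM in control. Neuronal markers summed to 2827 to 2884 FPKM in CR and 2728 to 3051 FPKM in control, but single markers moved. Of the 6, Snap25, Syt1 and Stmn2 had all CR values above all control values and were called higher, with Snap25 at 124.2 to 141.6 FPKM in CR and 87.4 to 111.4 FPKM in control (limma adjusted p = 0.00997). Map2 and Tubb3 had all CR values below all control values and did not pass, and Rbfox3 overlapped. These counts stand beside 26.1% of all tested genes with all CR values above and 24.3% with all CR values below. No marker of these 4 lists was at 0 in all libraries of a group. In the other cell type lists few markers were called. These were 0 of 7 for endothelium and pericytes, 1 of 6 for choroid plexus, 1 of 8 for meninges and 0 of 3 for blood, against 33.9% of all tested genes. The part of cell types in the changes of Igf1r and Irs2 was not tested.

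The genes with the most similar pattern over the 6 libraries were found by the root mean square difference of log2(FPKM + 1), each gene centred on its own mean, among 11522 genes with a RefSeq symbol and a mean of at least 1 FPKM. For Igf1r they were Ripk1 (0.0141), a kinase of cell death and inflammation, the ventral telencephalic transcription factor gene Dlx6 (0.0345) and Cnih4 (0.0377), against an SD of Igf1r itself of 0.302. Ripk1 was at 3.01 ± 0.325 FPKM in CR and 4.85 ± 0.417 FPKM in control (SD, n = 3 each). For Irs2 they were Ranbp2 (0.0111), a protein of the nuclear pore, Zkscan8 (0.0188) and Slitrk5 (0.0188), and Ranbp2 was at 13.9 ± 0.362 FPKM in CR and 18.0 ± 0.309 FPKM in control. For Insr they were Shld3 (0.0242), the clathrin adaptor gene Picalm (0.0253) and Nyap1 (0.0261), the last a phosphoprotein gene of neurons linked to PI3K. The SD of Insr itself was 0.16 and that of Irs2 was 0.188. All of these genes are the closest picked from 11522 over only 6 libraries. How close the best of so many would come without any link was not tested, so the likeness shows no shared regulation.

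In the wider pathway, more genes were lower than higher in CR. Lists of other docking proteins and adaptors, of the Ras and MAP kinase arm, of proteins that restrain the receptor and of the PI3K arm held 74 tested genes, of which 8 were called higher, 23 lower and 43 were not called. The share called, 41.9%, stands beside 33.9% of all tested genes. Over all tested genes 17.7% were called higher and 16.2% lower. In these lists the shares were 10.8% higher and 31.1% lower. The genes named from each list are among its called members with the largest absolute changes.

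Among other docking proteins and adaptors, 1 of 23 tested genes was higher, 6 were lower and 16 were not called, 30.4% called in all against 33.9% of all tested genes, with a median log2 fold change of -0.13 against 0.01 over all tested genes. Dok5, a docking protein for receptor tyrosine kinases that the insulin receptor phosphorylates, fell to 27.3 ± 4.43 FPKM in CR, against 52.4 ± 8.27 FPKM in control (SD, n = 3 each; log2 fold change -0.92, limma adjusted p = 0.00342). Sh2b2, an adaptor of the activated insulin receptor, fell to 6.41 ± 0.241 FPKM in CR, against 9.90 ± 0.989 FPKM in control. Nck2 (-0.42), an adaptor to the actin cytoskeleton, and Frs2 (-0.35), the docking protein of fibroblast growth factor receptors, had smaller decreases on the log2 scale.

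In the Ras and MAP kinase arm, 3 of 13 tested genes were higher, 4 were lower and 6 were not called (median log2 fold change -0.07). The share called was 53.8%, against 33.9% of all tested genes, where 17.7% were called higher and 16.2% lower. Araf, a RAF kinase, rose to 39.6 ± 2.15 FPKM in CR, against 29.3 ± 0.157 FPKM in control (log2 fold change 0.42, limma adjusted p = 0.00154), and Map2k2, a MAP kinase kinase, to 47.2 ± 1.97 FPKM, against 35.3 ± 1.98 FPKM in control. Rasa1, a GTPase-activating protein that switches Ras off, fell to 22.6 ± 0.780 FPKM in CR, against 31.4 ± 0.777 FPKM in control, and Nras to 34.8 ± 2.14 FPKM in CR, against 44.9 ± 1.52 FPKM in control. Genes that carry the signal, such as Araf and Nras, thus moved in both directions.

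Among genes that restrain the receptor or its substrates, 4 of 18 tested genes were higher, 7 were lower and 7 were not called (median log2 fold change -0.07). The share called was 61.1%, against 33.9% of all tested genes, where 17.7% were called higher and 16.2% lower. Grb10, the imprinted relative of Grb14, rose to 15.3 ± 0.553 FPKM in CR, against 9.71 ± 1.99 FPKM in control (log2 fold change 0.62, limma adjusted p = 0.0088). Cblb, a ubiquitin ligase of activated kinases, fell to 6.22 ± 0.934 FPKM in CR, against 11.7 ± 0.683 FPKM in control (log2 fold change -0.82, limma adjusted p = 0.00158). Ptpn1, the phosphatase that removes phosphate from the insulin receptor, fell to 12.2 ± 0.987 FPKM in CR, against 16.4 ± 0.678 FPKM in control, and Mdm2, a ubiquitin ligase that acts on p53 and on Igf1r, to 14.7 ± 0.894 FPKM in CR, against 20.4 ± 2.24 FPKM in control. The 11 calls in this list became 7 without CR replicate 1, CR replicate 3 or control replicate 2 and with the replicate block, and 5 without CR replicate 2.

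In the PI3K arm, none of 20 tested genes was called higher, 6 were lower and 14 were not called (median log2 fold change -0.13). The share called was 30%, against 33.9% of all tested genes, where 17.7% were called higher and 16.2% lower. Foxo6, a FOXO factor of neurons, fell to 8.88 ± 0.884 FPKM in CR, against 13.2 ± 0.744 FPKM in control (log2 fold change -0.53, limma adjusted p = 0.00341). The catalytic subunit genes Pik3cd (-0.42) and Pik3ca (-0.28) also fell on the log2 scale.

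**Figure D5:**
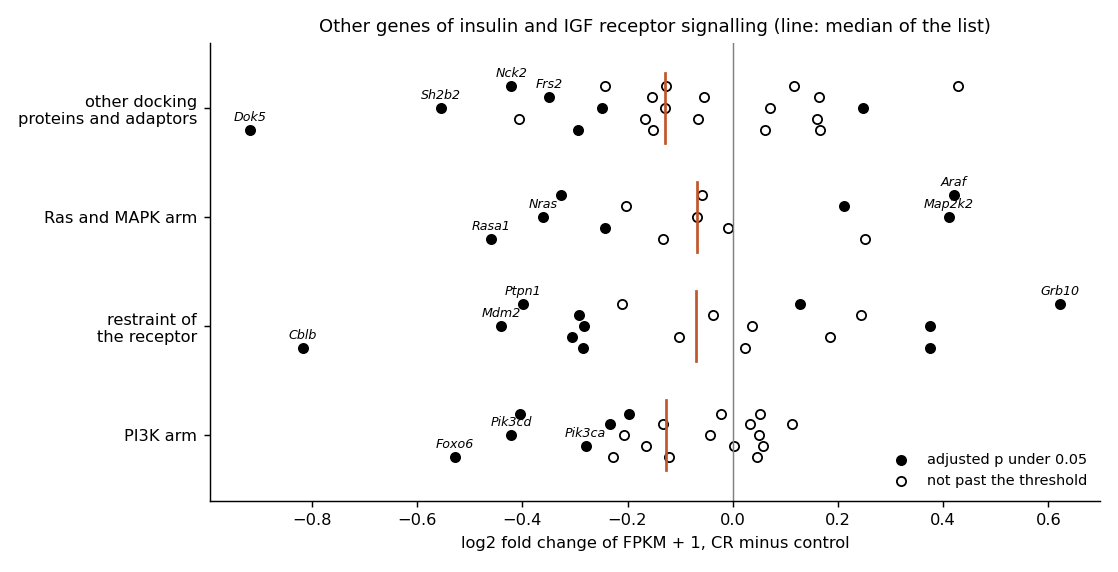
Log2 fold change of FPKM + 1 (CR minus control) for each tested gene of 4 pathway lists, one row per list with points spread vertically for legibility; filled points passed an adjusted p of 0.05, and the orange line is the median of the list. The named genes are among the filled points with the largest absolute changes of each list, from -0.92 for Dok5 to 0.62 for Grb10, and no gene of the PI3K arm is filled above 0.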

How the data were processed

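Polyadenylated RNA of 6 whole-brain samples (3 CR, 3 control) was measured by RNA-seq. TRIzol extraction and a stranded QIAseq library kit were used, per the labels' protocols. The submitters' processing notes name STAR 2.7.10a, featureCounts 2.0.1, cutadapt 1.16, Trimmomatic 0.36 and Trim Galore 0.4.4, and the build mRatBN7.2; order, roles and strand setting are not given in the sources used here. The authors deposited FPKM per Ensembl gene, 1 table per library, with exon lengths per the file headers. All values were whole multiples (within 0.05) of 1 read's worth, from which reads per gene and depth were worked out. Replicates differed by more than counting noise (the chi-square of a pair, averaged over genes that reached 50 reads, was 6.63 to 15.6).

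Genes whose mean reached 0.5 FPKM were tested two-sided with limma 3.58.1 in R 4.3.3 on log2(FPKM + 1) with a trend and group as the only term, and a simulated data set was used to check the script. The smallest library, control replicate 1, gives the largest counting error. Ratios used FPKM without a pseudocount and exact permutation tests. Region markers needed a mean of at least 0.1 FPKM. Where several IDs had a symbol, that with the highest mean was used. The 9 genes, the lists and the tests were chosen with earlier results of these data known. Named genes were the 8 matched genes, up to 4 called genes with the largest absolute change per pathway list, and the 3 nearest patterns of Insr, Igf1r and each called gene; Hoxa2, Pax7, Pou4f2, Sst and the neuronal markers were named after their values were seen, and results of some genes are not reported here. Alternatives were other pseudocounts, filters, scalings and moderation, a replicate block, the geometric mean of region markers (FPKM + 0.1), Y-linked RNA (summed FPKM above 5) or region markers as a covariate, limma-voom on reads, and each library left out.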

Additional observations from a re-analysis of the deposited data

How the results depend on the processing

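Igf1r and Irs2 stayed called and lower under every alternative except the region marker covariate, which gave log2 fold changes of -1.0 for Igf1r (limma adjusted p = 0.395) and -0.40 for Irs2 (0.607), and 0 calls among these genes, 0 in each pathway list and 0 over all genes in total, higher or lower. Among pathway genes called without that covariate, the estimates of Dok5 (0.38), Ptpn1 (0.033), Grb10 (-0.10), Nedd4l (0.084) and Foxo6 (0.060) had the opposite sign with it, and none passed. Irs1, not called in either fit, went from 0.08 to -0.89 (limma adjusted p = 0.427). The median standard error of all genes was 0.314 with the covariate and 0.0948 without. Insr passed with limma-voom on reads (-0.30) and with the Y-linked covariate (-0.30), and its other alternatives had adjusted p from 0.0558 to 0.859. With 1 library left out, the 5173 calls over all genes became 3210 to 5042 (1668 to 2698 higher, 1542 to 2344 lower), with the fewest without CR replicate 2 (3210) and CR replicate 3 (3308), and calls among receptor-restraining genes 5 to 9. With the geometric mean of markers, the log2 differences relative to caudal markers moved to -3.31 (Igf1r) to -1.79 (Insrr), from -1.90 to -0.38 with the sum, and those relative to telencephalic markers moved by less than the spread. Limma-voom called 11 docking protein and adaptor genes against 7. Same-numbered libraries had deviations correlated at 0.0245, 0.0198 and 0.0454, so the labels' numbers were not taken as pairs; with the replicate number as a block, 4445 genes were called (2352 higher, 2093 lower), Igf1r (limma adjusted p = 0.0194) and Irs2 among them, and 7 receptor-restraining genes against 11. Depth limits Insrr most, at 9 to 36 reads a library, while the other genes had 182 reads or more. For Shc1 the counting error was still about as large as the spread between libraries, and for Irs2 it exceeded the control spread.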
